A study of Orbilia oligospora with 12 samples.

Results

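SNF1 (AOL_s00173g192) and an SNF-related kinase, called here the SNRK-type kinase (AOL_s00054g163), are 2 of the 11479 genes in the deposited expression table of Arthrobotrys oligospora (organism name in the labels, Orbilia oligospora), a nematode-trapping fungus. Both were taken by locus and annotation, and earlier results of these data were known when they were chosen. The deposited annotation gives AOL_s00173g192 the KEGG orthology name SNF1, a best Swiss-Prot match to a sucrose non-fermenting kinase of Fusarium virguliforme, and a protein kinase, an AdenylateSensor and a UBA domain. AOL_s00054g163 has no KEGG name there. Its best Swiss-Prot match is human SNRK, and beside its protein kinase domain it carries tetratricopeptide repeats and neither the AdenylateSensor nor the UBA domain, so its name rests on a single protein match. The coding lengths are alike, 2469 bases for SNF1 and 2481 bases for the SNRK-type kinase, and neither gene overlaps a neighbour in the RefSeq gene table.

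SNF1 is the fungal form of the AMP-activated protein kinase, a complex of a catalytic alpha subunit (SNF1 itself), a scaffold beta subunit that binds carbohydrate and a gamma subunit (SNF4) that binds adenine nucleotides. In yeast it becomes active when glucose runs low, through upstream kinases that phosphorylate it, and a type 1 phosphatase reverses this. Active Snf1 lifts repression by Mig1, whose counterpart in filamentous fungi is CreA, and so opens the genes for other carbon sources, gluconeogenesis and fatty acid oxidation. SNRK, known from mammals, belongs to the AMP-activated kinase family, and its role in fungi is not established by the annotation used here.

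RNA-seq libraries came from hyphae of a strain labelled ΔAorlmA, after a MADS-box transcription factor, and of the wild type (WT), each at 0 h and 48 h, with 3 libraries per group and 12 in all. Every group, those at 0 h included, carries the same treatment label, trap induction by nematode extract, and the growth protocol gives 5 days at 28°C on potato dextrose agar. The labels call the replicates biological without naming separate cultures or clones, so p-values measure the spread between these libraries, which may be technical. In bulk RNA, fewer cells of a kind and less RNA per cell cannot be told apart.

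The identity of the mutant is uncertain, and the strain is called here the labelled mutant. The growth protocol names a ΔAosnf1 strain in place of ΔAorlmA, but SNF1 was expressed in all 6 libraries labelled ΔAorlmA, at 23.59 TPM or more. AOL_s00078g125, the closest annotated match to the labelled gene, was not lost either: it had 72.19, 115.85 and 163.76 TPM in libraries labelled ΔAorlmA at 0 h, against 38.47, 39.99 and 30.25 TPM in WT. The 48 h libraries had 108.6, 96.92 and 87.26 TPM in libraries labelled ΔAorlmA, against 32.31, 45.1 and 27.94 TPM in WT. The files do not show where in a gene its reads fall, so a partial deletion was not looked for.

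Libraries held 48.5 to 61.1 M clean reads. Levels were deposited as TPM, a read share scaled for gene length and library size, and as FPKM, and low FPKM values fell on whole-fragment steps, from which 12.4 to 15.7 M assigned fragments per library were estimated. SNF1 then rested on 1013 to 4659 fragments per library, a counting error of 1.47% to 3.14%. The SNRK-type kinase rested on 216 to 1081 fragments in every group except WT at 48 h, where it had 77 to 110 and a counting error of 9.54% to 11.4%. These errors cover counting only and are smaller than the spread between libraries. The first library labelled ΔAorlmA had the lowest mean correlation with its own group at both times, 0.903 at 0 h and 0.932 at 48 h. The other libraries labelled ΔAorlmA had 0.931 to 0.956, and WT libraries had 0.949 to 0.979.

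SNF1 had its highest level in WT at 0 h. It had 38.29, 53.91 and 36.98 TPM in libraries labelled ΔAorlmA at 0 h, against 102.84, 108.13 and 108.52 TPM in WT at 0 h. The groups did not overlap, and the highest library labelled ΔAorlmA was well below the lowest WT one. At 48 h SNF1 had 23.59, 41.02 and 41.81 TPM in libraries labelled ΔAorlmA, against 54.66, 36.28 and 28.49 TPM in WT. Here the groups overlapped, and the lowest library was the first labelled ΔAorlmA and the highest the first WT one.

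In order of mean level, SNF1 stood at 106.5 ± 3.17 TPM in WT at 0 h, 43.1 ± 9.42 TPM in the labelled mutant at 0 h, 39.8 ± 13.4 TPM in WT at 48 h and 35.5 ± 10.3 TPM in the labelled mutant at 48 h (SD, n = 3 each). WT at 0 h stood clear of the next group by 48.93 TPM between nearest libraries. The other groups overlapped with their neighbours in this order. The spread within WT at 0 h was a coefficient of variation of 2.98%, and 21.9% to 33.8% in the other groups.

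The SNRK-type kinase was also highest in WT at 0 h, but WT at 48 h was its lowest group. It had 5.68, 15.76 and 9.5 TPM in libraries labelled ΔAorlmA at 0 h, against 25.25, 23.39 and 25.06 TPM in WT at 0 h. All 3 libraries labelled ΔAorlmA were below all 3 of WT. At 48 h it had 13.05, 11.95 and 22.97 TPM in libraries labelled ΔAorlmA, against 3.19, 1.74 and 1.85 TPM in WT. The order of the strains was the opposite one, again with no overlap.

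From the highest, its means were 24.6 ± 1.02 TPM in WT at 0 h, 16.0 ± 6.07 TPM in the labelled mutant at 48 h, 10.3 ± 5.09 TPM in the labelled mutant at 0 h and 2.26 ± 0.807 TPM in WT at 48 h (SD, n = 3 each). The nearest libraries of WT at 0 h and of the labelled mutant at 48 h were only 0.42 TPM apart. The labelled mutant at 48 h and at 0 h overlapped, while the labelled mutant at 0 h stood 2.49 TPM clear of WT at 48 h.

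**Figure D1:**
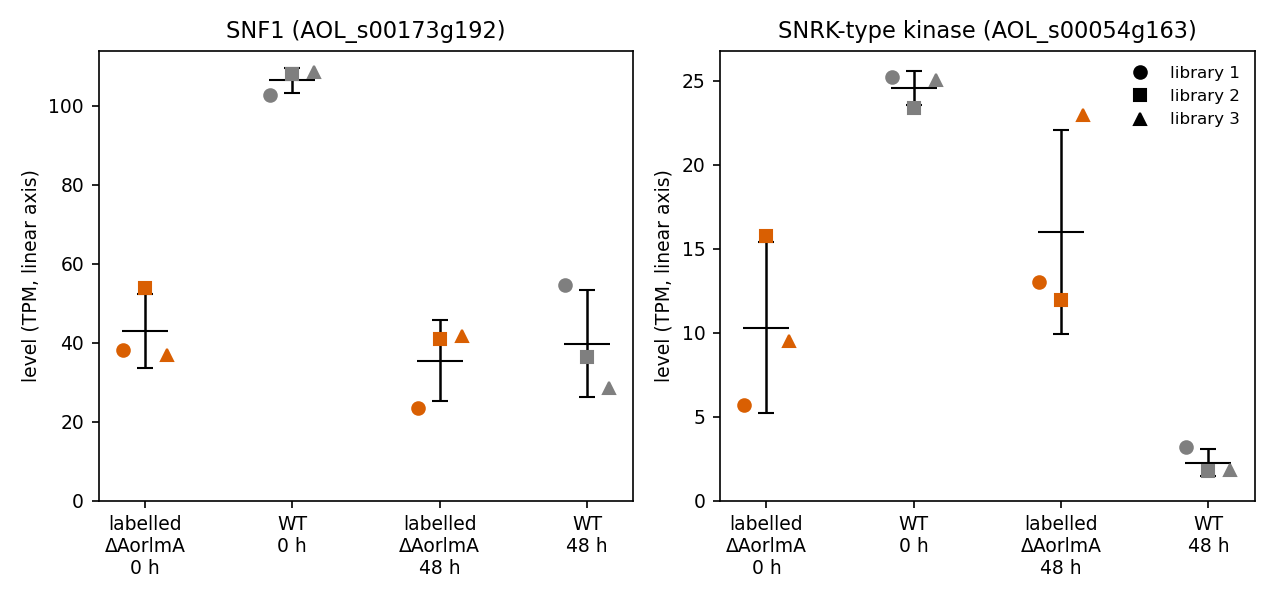
Levels of SNF1 (left) and the SNRK-type kinase (right) in TPM on linear axes, 1 point per library, with the mean and SD of each group as a bar. SNF1 stands apart in WT at 0 h (102.84 to 108.52 TPM), whereas the SNRK-type kinase is lowest in WT at 48 h (1.74 to 3.19 TPM) and higher in the libraries labelled ΔAorlmA at that time (11.95 to 22.97 TPM).

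The first comparison asks how the labelled mutant differed from WT before the 48 h of induction. Both kinases were lower in the labelled mutant. The SNF1 mean was 2.47-fold lower, with a log2 fold change of -1.31 (SE 0.30, 95% interval -1.97 to -0.65, limma adjusted p = 0.00648). The SNRK-type kinase had a log2 fold change of -1.28 (SE 0.37, 95% interval -2.07 to -0.48, limma adjusted p = 0.0165). Lower calls of this kind were common, since 33.8% of the 9355 genes tested were called lower in the labelled mutant at 0 h and 8.87% higher, 42.7% in all.

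The median gene was also lower by 0.56 on the log2 scale in the labelled mutant at 0 h, so that SNF1 and the SNRK-type kinase lay at the 13.9% and 15% point of all genes, counted from the most lowered. When libraries were rescaled by median-of-ratios, the median shift shrank to -0.06 and both calls ended, with -0.76 for SNF1 (limma adjusted p = 0.0774) and -0.75 for the SNRK-type kinase (limma adjusted p = 0.153). Quantile normalization kept SNF1 (-1.04, limma adjusted p = 0.0211) and not the SNRK-type kinase (-0.80, limma adjusted p = 0.128), and leaving out WT library 3 also ended the call of the SNRK-type kinase (-1.26, limma adjusted p = 0.0546). The authors' deposited table calls neither gene between the strains at 0 h, and gives both as down.

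At 48 h the kinases parted. The SNRK-type kinase was 7.08-fold higher in the labelled mutant than in WT, a log2 fold change of 2.35 (SE 0.37, 95% interval 1.55 to 3.15, limma adjusted p = 0.0044), where 9.2% of all genes tested were called higher and 14.7% lower, 23.9% in all. SNF1 had a log2 fold change of -0.16 (SE 0.30, 95% interval -0.81 to 0.50, limma adjusted p = 0.734), an interval that leaves room for a difference of either sign. The SNRK-type call held in every alternative processing and with each library left out. The SNF1 difference was small enough to turn its sign without the first WT library (0.09) or without the first library labelled ΔAorlmA (0.11). The authors' deposited table calls the SNRK-type kinase up and does not call SNF1, which it gives as up, the opposite sign to the -0.16 here.

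Over 48 h in WT both kinases fell. SNF1 fell 2.68-fold, with a log2 fold change of -1.45 (SE 0.30, 95% interval -2.11 to -0.79, limma adjusted p = 0.00238). The SNRK-type kinase fell 10.9-fold, with a log2 fold change of -2.998 (SE 0.37, 95% interval -3.80 to -2.20, limma adjusted p = 7.75e-05), and only 2.6% of the tested genes had a lower value. In this comparison 28.7% of all genes were called lower and 17.6% higher, 46.4% in all. Both calls held in every alternative and with each library left out, and the authors' deposited table calls both genes down.

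Over 48 h in the labelled mutant neither kinase passed the test, beside a background of 13.0% of genes called higher and 8.52% called lower, 21.5% in all. SNF1 had a log2 fold change of -0.30 (95% interval -0.95 to 0.36, limma adjusted p = 0.498) and the SNRK-type kinase 0.63 (95% interval -0.17 to 1.43, limma adjusted p = 0.229). The libraries at 48 h and 0 h overlapped for both genes. The authors' deposited table calls neither.

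The interaction, the 48 h change in the labelled mutant minus that in WT, tests whether the strains differed in their change. For the SNRK-type kinase it was 3.63 on the log2 scale (SE 0.52, 95% interval 2.50 to 4.76, limma adjusted p = 0.011), where 3.23% of genes were called higher and 1.2% lower, 4.43% in all. Ranked by p it was number 8 of the 9355 genes, and it stayed called in all 19 alternatives, at 2.96 to 4.12 (limma adjusted p 0.00413 to 0.0444). For SNF1 the interaction was 1.15 (SE 0.43, 95% interval 0.22 to 2.08, limma adjusted p = 0.122) and did not pass. It passed without the first library labelled ΔAorlmA at 48 h (1.41, limma adjusted p = 0.0467).

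**Figure D2:**
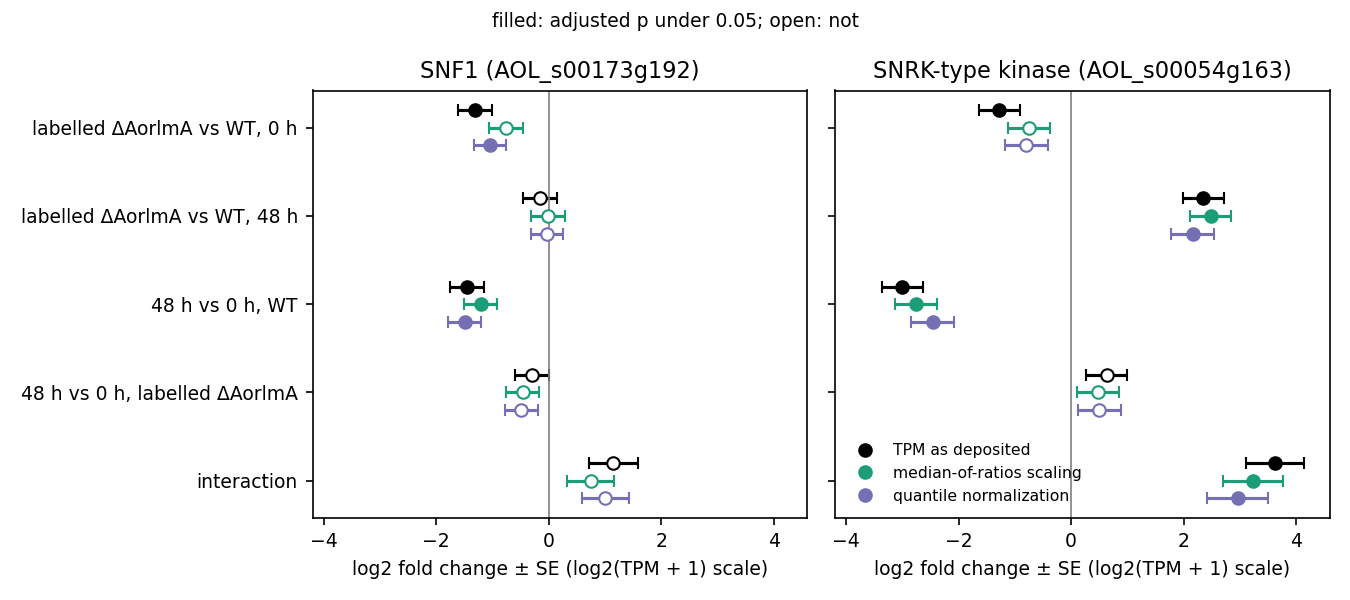
Log2 fold changes with their SE for SNF1 (left) and the SNRK-type kinase (right) in 5 comparisons, from TPM as deposited and after the other scalings, filled where the limma adjusted p was under 0.05. The lower levels in the labelled mutant at 0 h shrink after rescaling (SNF1 -1.31 as deposited and -0.76 after median-of-ratios scaling), while the SNRK-type changes at 48 h, over time in WT and in the interaction are called under each scaling.

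A ratio of the kinases within a library does not depend on how libraries are scaled to each other. The TPM ratio of SNF1 to the SNRK-type kinase was 6.74, 3.42 and 3.89 in libraries labelled ΔAorlmA at 0 h, against 4.07, 4.62 and 4.33 in WT. At 48 h it was 1.81, 3.43 and 1.82 in libraries labelled ΔAorlmA, against 17.1, 20.9 and 15.4 in WT. The strains overlapped at 0 h and lay far apart at 48 h.

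On the log2(TPM + 1) scale the difference SNF1 minus SNRK-type kinase was 1.11 ± 0.51 in the labelled mutant at 48 h and 3.62 ± 0.22 in WT at 48 h (SD, n = 3 each), a contrast of -2.51 (two-sided exact permutation p = 0.1). At 0 h it was 2.04 ± 0.45 in the labelled mutant and 2.07 ± 0.09 in WT, a contrast of -0.03 (two-sided exact permutation p = 1.0). Over 48 h it moved by 1.55 in WT and by -0.93 in the labelled mutant (two-sided exact permutation p = 0.1 for both). The latter depended on the pseudocount. Without it the move in the labelled mutant was -0.997 (two-sided exact permutation p = 0.2). The TPM ratios there overlapped, with a lowest of 3.42 at 0 h and a highest of 3.43 at 48 h. With 3 libraries against 3, 0.1 is the smallest p that this test allows.

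**Figure D3:**
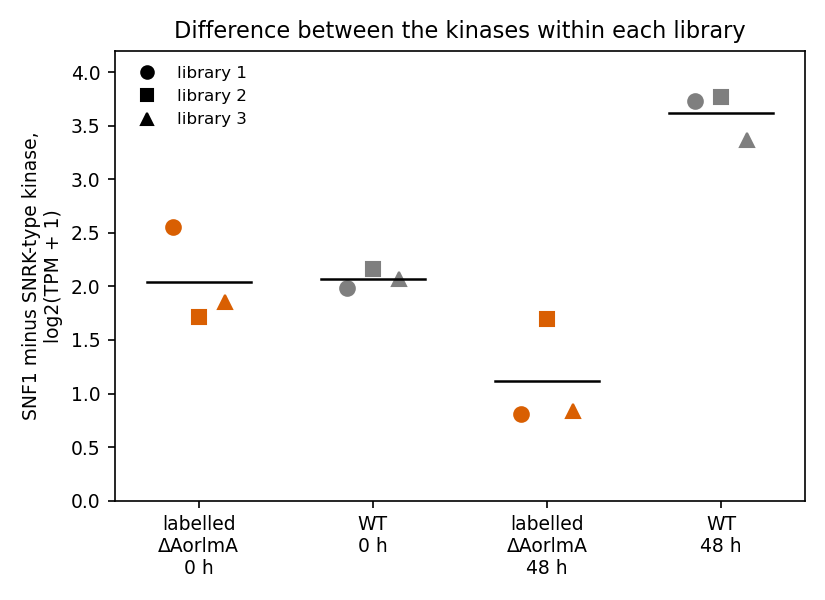
Difference between SNF1 and the SNRK-type kinase in each library on the log2(TPM + 1) scale, with points for libraries and a line at each group mean. The groups at 0 h share a mean near 2.04 to 2.07, and at 48 h the labelled mutant (1.11) and WT (3.62) lie on opposite sides of it.

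Against the other protein kinases of the table the pair occupied different ranks. Among the 126 genes with a Pfam protein kinase domain, a set added after the values were seen, SNF1 ranked 38 in the labelled mutant at 0 h and 15 in WT at 0 h by mean TPM, and 49 in the labelled mutant and 48 in WT at 48 h. The SNRK-type kinase ranked 82 in the labelled mutant and 72 in WT at 0 h, and 69 in the labelled mutant and 101 in WT at 48 h. The median kinase gene had 19.6 TPM in the labelled mutant and 25.5 TPM in WT at 48 h.

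Of the 111 kinase genes tested, 41 were called lower and 7 higher in the labelled mutant at 0 h. The lower share was near the 33.8% of all genes, of which 8.87% were called higher. At 48 h 9 were called lower and 8 higher in the labelled mutant, beside 14.7% and 9.2% of all genes. The SNRK-type kinase had the next to highest log2 fold change there, number 110 counted from the lowest. Over time in WT 30 kinase genes were called lower and 8 higher. The lower share was near the 28.7% of all genes, of which 17.6% were called higher, and the SNRK-type kinase was number 4 from the lowest. In the interaction 6 kinase genes were called higher and 0 lower, beside 3.23% and 1.2% of all genes. The SNRK-type kinase had the highest interaction of all 111.

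By annotation, the partners of SNF1 in its complex are the beta subunit AOL_s00215g614 and the gamma subunit SNF4 AOL_s00004g493. A gene with only the carbohydrate-binding domain of AMP-activated kinase, AOL_s00079g151, was listed with them. Its annotation does not show that it belongs to the complex. SNF4 had 26.74, 60.17 and 33.51 TPM in libraries labelled ΔAorlmA at 0 h, against 239.62, 225.01 and 187.17 TPM in WT. The SNF4 level at 48 h was 20.48, 14.89 and 15.21 TPM in libraries labelled ΔAorlmA, against 25.32, 34.35 and 25.78 TPM in WT. Every library labelled ΔAorlmA was below every WT library of its time, and the WT libraries at 48 h were far below those at 0 h.

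SNF4 was lower in the labelled mutant at 0 h by a log2 fold change of -2.48 (SE 0.30, limma adjusted p = 0.00051) and fell over 48 h in WT (-2.89, SE 0.30, limma adjusted p = 3.39e-05). It also fell in the labelled mutant (-1.13, limma adjusted p = 0.0222), a call that ended in a fit of those groups alone (limma adjusted p = 0.126) and in 3 of 12 fits with 1 library left out (up to 0.0881). At 48 h its difference between the strains was -0.72 (SE 0.30, limma adjusted p = 0.0978). Per unit of SNF1 TPM, SNF4 stood at 0.698 to 1.12 in libraries labelled ΔAorlmA at 0 h, against 1.72 to 2.33 in WT. At 48 h this ratio was 0.363 to 0.868 in libraries labelled ΔAorlmA, against 0.463 to 0.947 in WT, and the groups overlapped.

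The beta subunit had 71.59, 65.23 and 50.06 TPM in libraries labelled ΔAorlmA at 0 h, against 121.61, 124.82 and 128.89 TPM in WT, and 44.09, 71.52 and 71.59 TPM in libraries labelled ΔAorlmA at 48 h, against 62.36, 46.66 and 45.22 TPM in WT. The strains were apart at 0 h and overlapped at 48 h. Per unit of SNF1 TPM, the beta subunit stood at 1.21 to 1.87 in libraries labelled ΔAorlmA at 0 h, against 1.15 to 1.19 in WT. At 48 h this ratio was 1.71 to 1.87 in libraries labelled ΔAorlmA, against 1.14 to 1.59 in WT, so it was higher in every library labelled ΔAorlmA than in any WT library of its time. Its level was lower in the labelled mutant at 0 h (-1.01, SE 0.26, limma adjusted p = 0.00995), a call that ended after median-of-ratios scaling (-0.46, limma adjusted p = 0.191), and it fell over 48 h in WT (-1.28, SE 0.26, limma adjusted p = 0.00187). The gene with only the carbohydrate-binding domain passed no test, with log2 fold changes from -0.77 to 0.76. Of these 3 genes, 2 were called lower at 0 h and 2 over time in WT, with medians of -1.01 and -1.28, where the medians of all genes were -0.56 and -0.25 and 33.8% and 28.7% of them were called lower.

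Among 7 genes of upstream kinases, phosphatases and sugar kinases linked to SNF1 in yeast or other fungi, 3 were called lower and 0 higher in the labelled mutant at 0 h (median -0.50), near the 33.8% and 8.87% and the median of -0.56 of all genes. At 48 h limma called 0 of 7 (0 at an unadjusted p under 0.05; median 0.06), beside 23.9% of all genes and their median of -0.11. The upstream kinase ssp1 (AOL_s00110g86), of the calmodulin kinase kinase group, had 11.1 ± 2.29 TPM in the labelled mutant and 61.9 ± 16.9 TPM in WT at 0 h (SD, n = 3 each; -2.36, limma adjusted p = 0.000601). The phosphatase SIT4 (AOL_s00215g776) had 22.7 ± 6.75 TPM in the labelled mutant and 46.8 ± 13.0 TPM in WT at 0 h (-1.02, limma adjusted p = 0.0146). Glucokinase (AOL_s00004g632), which phosphorylates glucose, had 102.1 ± 21.4 TPM in the labelled mutant and 210.1 ± 50.3 TPM in WT (-1.03, limma adjusted p = 0.0255). The SIT4 and glucokinase calls ended after median-of-ratios scaling (-0.48 for both, limma adjusted p = 0.156 and 0.266), and that of ssp1 did not. With single libraries left out, the SIT4 call ended in 2 of 12 fits (limma adjusted p up to 0.0728) and the glucokinase call in 4 (up to 0.105).

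Over 48 h in WT 3 of the 7 fell and 1 rose, beside 28.7% and 17.6% of all genes. Hexokinase (AOL_s00112g89) fell to 104.6 ± 59.0 TPM in WT at 48 h, against 391.8 ± 66.7 TPM in WT at 0 h (-2.04, limma adjusted p = 0.00458). Glucokinase (-1.72, limma adjusted p = 0.00134) and ssp1 (-1.37, limma adjusted p = 0.00365) fell too. The calmodulin kinase kinase cmkC (AOL_s00215g625) rose in WT, to 115.8 ± 26.5 TPM at 48 h against 30.9 ± 2.86 TPM at 0 h (1.85, limma adjusted p = 0.00543). It rose in the labelled mutant as well, to 130.3 ± 6.66 TPM at 48 h against 29.0 ± 26.8 TPM at 0 h (2.48, limma adjusted p = 0.00455). The type 1 phosphatase GLC7 (AOL_s00083g164), which opposes Snf1 activation in yeast, passed no test, with group means of 211.1 to 238.4 TPM and log2 fold changes from -0.18 to 0.09. Hexokinase-1 (AOL_s00215g425) passed none either, at 7.78 to 22.8 TPM.

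Of 7 genes for carbon regulators downstream of SNF1 or beside it, 1 was called higher and 1 lower in the labelled mutant at 0 h (median 0.04) and 2 higher at 48 h (median 0.27), beside 8.87% higher and 33.8% lower among all genes at 0 h and 9.2% higher at 48 h. Among the 2 was creA (AOL_s00054g35), the carbon catabolite repressor. It had 97.28, 173.29 and 91.89 TPM in libraries labelled ΔAorlmA at 0 h, against 273.5, 207.46 and 135.17 TPM in WT. The 48 h levels of creA were 91.27, 131.99 and 104.39 TPM in libraries labelled ΔAorlmA, against 48.85, 49.57 and 34.87 TPM in WT. The strains overlapped at 0 h (-0.76, limma adjusted p = 0.0712), while at 48 h every library labelled ΔAorlmA was above every WT library (1.28, SE 0.32, limma adjusted p = 0.0172). The 48 h call ended when WT library 3, or library 2 or 3 of those labelled ΔAorlmA, was left out (limma adjusted p 0.0605 to 0.0714).

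Over 48 h creA fell in WT (-2.14, SE 0.32, limma adjusted p = 0.000256) and had a log2 fold change of -0.10 in the labelled mutant (limma adjusted p = 0.847). RDS2 (AOL_s00081g200), a regulator of gluconeogenic genes in yeast, was higher in the labelled mutant at 0 h (1.39, limma adjusted p = 0.0299) and at 48 h (1.49, limma adjusted p = 0.0357). Its strains overlapped at 48 h, with a lowest library labelled ΔAorlmA of 107.46 TPM and a highest WT library of 109.69 TPM. The 48 h call of RDS2 ended without the filter on low genes (limma adjusted p = 0.0508), and leaving out single libraries ended the 0 h call in 4 of 12 fits and the 48 h call in 5 (limma adjusted p up to 0.12 and 0.137). The corepressor TUP1 (AOL_s00076g331) rose over 48 h in WT (0.84, limma adjusted p = 0.0162) and in the labelled mutant (0.98, limma adjusted p = 0.0187), calls that ended in 2 and 3 of 12 fits with 1 library left out (limma adjusted p up to 0.0606 and 0.0724). The deubiquitinase complex member creC (AOL_s00004g349) was called lower at 0 h (-0.77, limma adjusted p = 0.0494), and that call ended under both other scalings (limma adjusted p = 0.575 and 0.396) and in 10 of 12 fits with 1 library left out. The genes creB (AOL_s00054g570), creD (AOL_s00004g345) and SSN6 (AOL_s00081g314) passed no test. For creD, every library labelled ΔAorlmA was still above every WT library of its time. Its log2 fold changes were 1.35 at 0 h (limma adjusted p = 0.0524) and 1.17 at 48 h (limma adjusted p = 0.115).

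**Figure D4:**
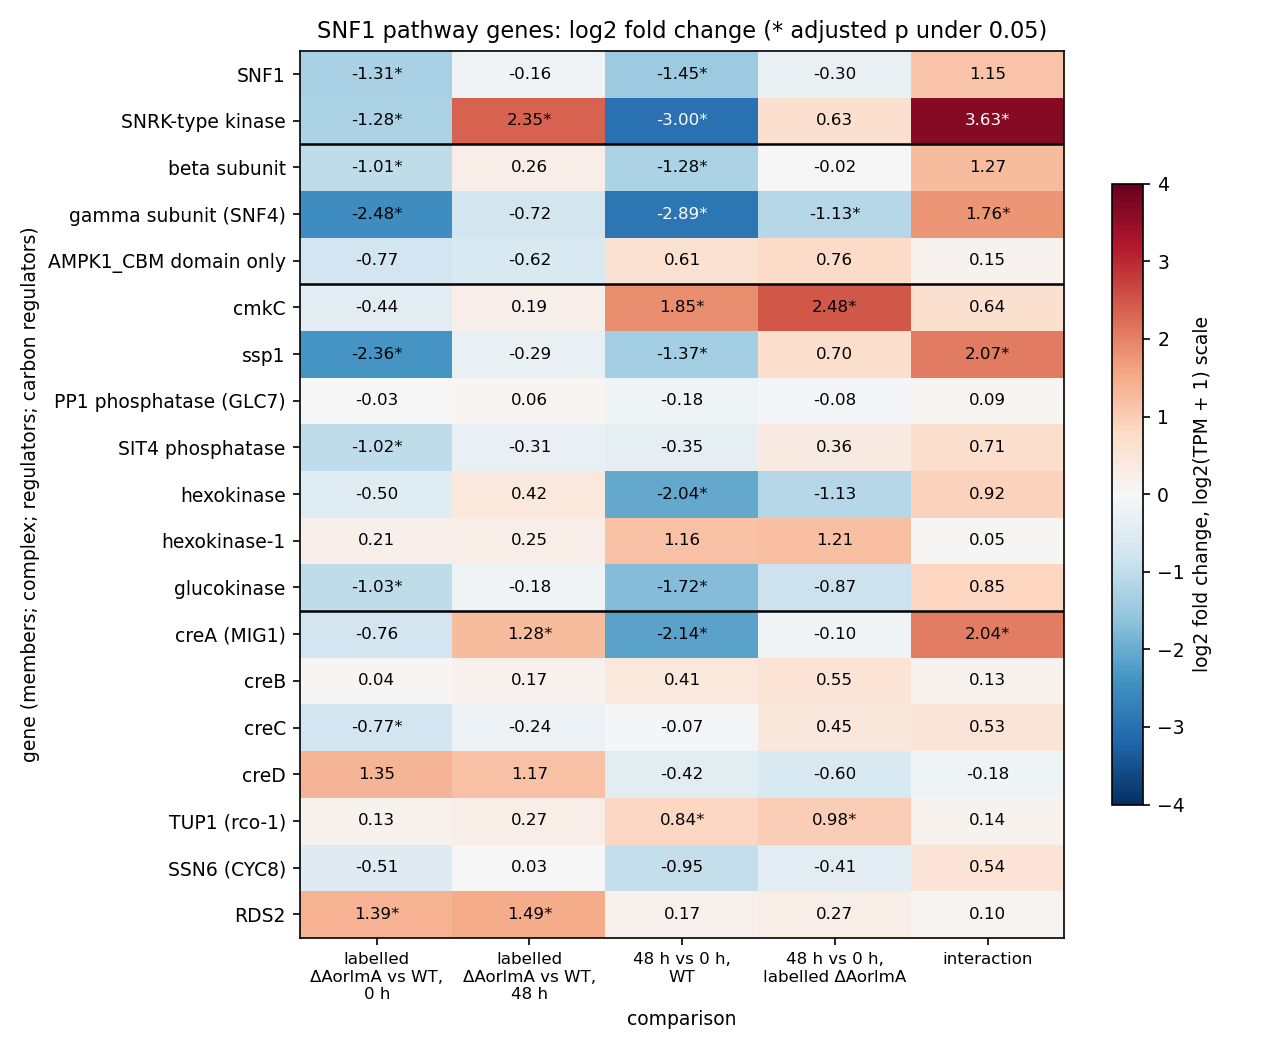
Log2 fold changes of SNF1, the SNRK-type kinase and 17 genes of the complex, its regulators and carbon regulators (rows) in 5 comparisons (columns), coloured by value and starred where the limma adjusted p was under 0.05. SNF1, its beta subunit and SNF4 are all lower in the labelled mutant at 0 h (-1.31, -1.01 and -2.48) and over time in WT, and the SNRK-type kinase and creA are the rows called both higher in the labelled mutant at 48 h and lower over time in WT.

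The interaction was called for 3 of these 17 genes, all higher, beside 3.23% of all genes: SNF4 (1.76, limma adjusted p = 0.0407), ssp1 (2.07, limma adjusted p = 0.0256) and creA (2.04, limma adjusted p = 0.0301). All 3 calls ended after median-of-ratios scaling (limma adjusted p = 0.102, 0.0522 and 0.084) and in 9, 6 and 7 of 12 fits with 1 library left out, whereas that of the SNRK-type kinase was kept in all of these. The beta subunit had an interaction of 1.27 (limma adjusted p = 0.064), close to the 1.15 of SNF1.

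Of 10 other nutrient-sensing kinases tested, 4 were called lower in the labelled mutant at 0 h (median -0.70) and 4 over 48 h in WT (median -0.59), with 0 higher in either. These shares are near those of all genes, 33.8% lower at 0 h and 28.7% lower over time in WT. The autophagy kinase ATG1 (AOL_s00076g234) had the lowest adjusted p in both, with 9.61 ± 1.70 TPM in the labelled mutant and 28.2 ± 0.555 TPM in WT at 0 h (SD, n = 3 each; -1.47, limma adjusted p = 0.00405) and a fall over 48 h in WT (-1.75, limma adjusted p = 0.000673). Over 48 h in the labelled mutant, where 21.5% of all genes were called, the only one called was the regulatory subunit of protein kinase A (AOL_s00075g84). This subunit, which holds that kinase inactive, had 25.1 ± 3.20 TPM at 48 h and 54.5 ± 12.8 TPM at 0 h (-1.07, limma adjusted p = 0.0332). That call ended in 6 of 12 fits with 1 library left out. At 48 h limma called 0 of the 10 between the strains (0 at an unadjusted p under 0.05, median -0.05), beside 23.9% of all genes. The interaction was called for 1 of the 10, ATG1 (1.99, limma adjusted p = 0.0271), beside 4.43% of all genes. That call ended in 8 of 12 fits with 1 library left out (limma adjusted p up to 0.0827).

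Of 11 further kinases of the calmodulin kinase and SNF1-related group, 10 were tested, and GIN4 (AOL_s00004g649) did not pass the filter on low values. In the labelled mutant 5 were called lower and 1 higher at 0 h (median -0.84), and 1 lower and 2 higher at 48 h (median 0.14). Of all genes 33.8% were lower and 8.87% higher at 0 h, and 14.7% lower and 9.2% higher at 48 h. KIN4 (AOL_s00004g568) was the one called higher at both times, with 133.8 ± 60.2 TPM in the labelled mutant and 28.2 ± 5.34 TPM in WT at 0 h (SD, n = 3 each; 2.10, limma adjusted p = 0.00186) and 125.4 ± 23.1 TPM in the labelled mutant and 31.0 ± 5.81 TPM in WT at 48 h (1.98, limma adjusted p = 0.00652). The DNA damage checkpoint kinase chk1 (AOL_s00080g44) was lower at both times (-1.20, limma adjusted p = 0.0078 at 0 h, and -1.47, limma adjusted p = 0.00801 at 48 h). Over 48 h the calmodulin kinase cmkA (AOL_s00078g95) fell in WT (-1.84, limma adjusted p = 9.98e-05) and in the labelled mutant (-1.26, limma adjusted p = 0.00499), and RAD53 (AOL_s00043g675), another checkpoint kinase, rose in the labelled mutant (1.02, limma adjusted p = 0.0301; ended in 4 of 12 fits with 1 library left out).

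The SWI/SNF and RSC chromatin remodelers share the SNF name from yeast genetics but are not part of the kinase complex. At 0 h limma called 0 of their 11 genes between the strains (4 at an unadjusted p under 0.05), beside 42.7% of all genes. Their median was -0.65, beside -0.56 for all genes, and of the same sign as the SNF1 difference. Over 48 h in WT 9 rose (median 1.22), beside 17.6% of all genes, where SNF1 fell. RSC7 (AOL_s00054g101) rose to 58.9 ± 9.17 TPM in WT at 48 h, against 19.4 ± 5.66 TPM in WT at 0 h (SD, n = 3 each; 1.58, limma adjusted p = 0.00411). In the labelled mutant 2 rose over 48 h, a share near the 13.0% of all genes. SNF5 (AOL_s00043g408) was among them (1.44, limma adjusted p = 0.0182). At 48 h 6 were called lower in the labelled mutant (median -1.13), beside 14.7% of all genes, with ARP9 (AOL_s00043g132) at 21.1 ± 11.6 TPM in the labelled mutant and 68.7 ± 6.50 TPM in WT (-1.78, limma adjusted p = 0.0125). With single libraries left out, the SNF5 call ended in 3 of 12 fits (limma adjusted p up to 0.0741) and the ARP9 call in 2 (up to 0.0577).

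Yeast Snf1 opens genes of gluconeogenesis. The list of gluconeogenesis and glyoxylate cycle genes used here also holds malic enzymes, so it is not a list of Snf1 targets. At 48 h 6 of its 11 genes were called higher in the labelled mutant and 0 lower (median 1.23). Of all genes 9.2% were called higher and 14.7% lower. PEP carboxykinase (AOL_s00004g362), the entry step of gluconeogenesis, had 230.7 ± 26.8 TPM in the labelled mutant and 95.3 ± 38.4 TPM in WT at 0 h (SD, n = 3 each; 1.35, limma adjusted p = 0.0335; ended in 5 of 12 fits with 1 library left out). At 48 h it had 187.0 ± 113.8 TPM in the labelled mutant and 31.1 ± 14.3 TPM in WT (2.51, limma adjusted p = 0.00683). At 0 h 1 gene of this list was called higher and 2 lower, beside 8.87% and 33.8% of all genes, NADP malic enzyme b (AOL_s00054g134) among them (-1.16, limma adjusted p = 0.00911).

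Over 48 h in WT 5 of these 11 fell and 1 rose, beside 28.7% and 17.6% of all genes. The NAD malic enzyme (AOL_s00080g133) fell to 6.19 ± 2.40 TPM in WT at 48 h, against 89.5 ± 16.2 TPM in WT at 0 h (SD, n = 3 each; -3.70, limma adjusted p = 2.71e-05), and isocitrate lyase (AOL_s00075g130), of the glyoxylate cycle, rose (1.07, limma adjusted p = 0.0402; ended in 5 of 12 such fits). In the labelled mutant 3 rose and 2 fell, beside 13.0% and 8.52% of all genes, with acetyl-CoA synthetase (AOL_s00081g301), which activates acetate, at 136.9 ± 43.9 TPM at 48 h and 30.1 ± 8.004 TPM at 0 h (2.13, limma adjusted p = 0.00325). Cytoplasmic malate dehydrogenase (AOL_s00215g565) was called lower there (-1.28, limma adjusted p = 0.0382; ended in 8 of 12 such fits). The interaction was called higher for 2 of the 11, beside 3.23% of all genes, the NAD malic enzyme first (2.61, limma adjusted p = 0.0212; ended in 2 of 12 such fits).

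Of 18 genes of fatty acid synthesis and oxidation, 4 were called higher and 2 lower in the labelled mutant at 0 h (median -0.38), and 5 higher and 0 lower at 48 h (median 0.75). The list pools synthesis with oxidation, so its counts and medians describe neither process alone, and it is not a list of Snf1 targets. Of all genes 8.87% were higher and 33.8% lower at 0 h (median -0.56), and 9.2% higher and 14.7% lower at 48 h (median -0.11). The acyl-CoA dehydrogenase AOL_s00079g276 was higher at both times, by 0.96 at 0 h (limma adjusted p = 0.012) and by 1.53 at 48 h (limma adjusted p = 0.00535), and a peroxisomal thiolase (AOL_s00054g149) was lower at 0 h (-1.15, limma adjusted p = 0.00937). Over 48 h 3 rose and 5 fell in WT, beside 17.6% and 28.7% of all genes, with an acyl-CoA dehydrogenase (AOL_s00188g288) at 1.42 (limma adjusted p = 0.0187) and the carnitine carrier CRC1 (AOL_s00176g51) at -1.34 (limma adjusted p = 0.00264). In the labelled mutant 5 rose and 0 fell, beside 13.0% and 8.52% of all genes, and the fatty acid transporter FAT1 (AOL_s00004g58) had the lowest adjusted p (1.26, limma adjusted p = 0.0149). Of these calls, those of AOL_s00079g276 at 0 h, AOL_s00188g288 in WT and FAT1 ended in 1, 2 and 2 of 12 fits with 1 library left out (limma adjusted p up to 0.0535, 0.0705 and 0.0637).

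Of 15 storage carbohydrate genes, for glycogen, trehalose and starch enzymes, 12 fell and 0 rose over 48 h in WT (median -2.22), beside 28.7% lower and 17.6% higher among all genes. Trehalose-phosphatase (AOL_s00110g144) fell to 16.9 ± 9.15 TPM in WT at 48 h, against 244.9 ± 56.1 TPM in WT at 0 h (SD, n = 3 each; -3.87, limma adjusted p = 2.71e-05). In the labelled mutant 4 fell, beside 8.52% of all genes, and trehalose-phosphatase again had the lowest adjusted p (-2.32, limma adjusted p = 0.0027). At 0 h 5 were called lower in the labelled mutant (median -0.93), near the 33.8% of all genes, with an alpha-glucosidase (AOL_s00169g233) at 0.22, 0.68 and 0.13 TPM in libraries labelled ΔAorlmA, against 7.89, 5.5 and 7.48 TPM in WT (-2.58, limma adjusted p = 0.000184). At 48 h glycogen synthase (AOL_s00007g435) was the only one called, beside 9.2% of all genes called higher and 14.7% lower. It had 432.6 ± 151.2 TPM in the labelled mutant and 157.7 ± 73.8 TPM in WT (1.51, limma adjusted p = 0.0208). That call ended in 3 of 12 fits with 1 library left out. The interaction was called higher for 2 of the 15, beside 3.23% of all genes, the alpha-glucosidase first (2.68, limma adjusted p = 0.011). Its means at 48 h were also near the floor, 0.79 TPM in the labelled mutant and 0.64 TPM in WT.

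**Figure D5:**
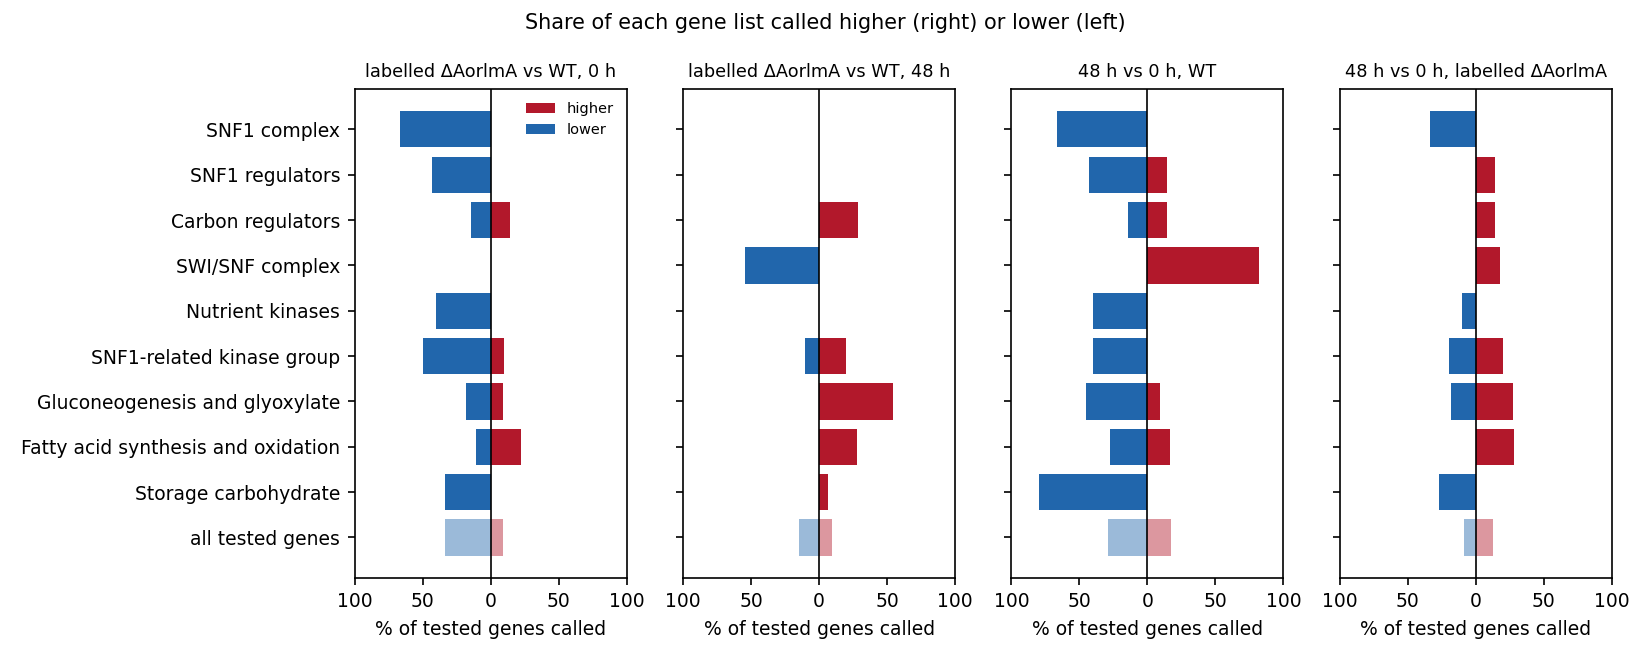
Percent of the tested genes of each list called higher (right, red) or lower (left, blue) in 4 comparisons, with all 9355 tested genes in paler bars at the bottom. Storage carbohydrate genes were called lower over time in WT for 12 of 15 and SWI/SNF genes higher for 9 of 11, beside 28.7% lower and 17.6% higher among all genes.

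The counts at 0 h depended on scaling. Over all 92 tested genes of the lists, 7 were called higher and 24 lower in the labelled mutant at 0 h from TPM as deposited, 10 higher and 6 lower after median-of-ratios scaling, and 8 higher and 12 lower after quantile normalization. Of all genes tested 8.87% were called higher and 33.8% lower there from TPM as deposited. Over all 9355 genes, 20.8% of the calls at 0 h were higher, against 56.5% after median-of-ratios scaling and 44.3% after quantile normalization. At 48 h the listed genes were called 16 higher and 7 lower, and 16 and 7 after median-of-ratios scaling. Over time in WT they were called 15 higher and 36 lower, and 20 and 32 after median-of-ratios scaling. Over time in the labelled mutant 14 higher and 10 lower became 10 higher and 14 lower. Shares of all genes called from TPM as deposited were 9.2% higher and 14.7% lower at 48 h. They were 17.6% and 28.7% over time in WT, and 13.0% and 8.52% over time in the labelled mutant. For all genes the higher share of calls was 38.5% at 48 h (46.1% after median-of-ratios scaling) and 38.0% over time in WT (51.2%). It was 60.3% over time in the labelled mutant (45.9%) and 72.9% in the interaction (37.3%).

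Genes with the pattern most like that of SNF1 over the 12 libraries were ranked by Pearson's r of log2(TPM + 1) among 5209 annotated genes with a mean of at least 5 TPM, as a description without a test, since the libraries fall into groups. The 5 highest were V-type ATPase subunit B (AOL_s00081g332, r = 0.976), neutral trehalase (AOL_s00075g83, 0.974), a cytochrome P450 (AOL_s00176g104, 0.969), an alkaline phosphatase annotated phoD (AOL_s00078g40, 0.968) and a glucan 1,3-beta-glucosidase (AOL_s00076g481, 0.961). The ATPase subunit had 102.9 TPM in the labelled mutant and 219.5 TPM in WT at 0 h, and 96.2 TPM in the labelled mutant and 92.5 TPM in WT at 48 h, and like SNF1 it was highest in WT at 0 h. The 3 most opposed were GTP cyclohydrolase (AOL_s00007g516, -0.93), the ribosome-associated chaperone SSB1 (AOL_s00007g116, -0.916) and the nucleolar protein NSR1 (AOL_s00043g641, -0.907). SSB1 had 864.1 TPM in the labelled mutant and 367.2 TPM in WT at 0 h, the group where SNF1 was highest.

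For the SNRK-type kinase the 5 highest were a zinc finger gene annotated as YY or GTF3A (AOL_s00080g214, r = 0.916), a HET-E-1-like gene (AOL_s00110g260, 0.901), sulfite oxidase (AOL_s00007g434, 0.895), creA (0.891) and a potassium channel beta subunit (AOL_s00170g104, 0.891). The channel subunit had 50.4 TPM in the labelled mutant and 71.1 TPM in WT at 0 h, and 27.1 TPM in the labelled mutant and 6.81 TPM in WT at 48 h. The 3 most opposed were the mitochondrial ribosomal protein S8 (AOL_s00004g83, -0.893), the nucleoporin NUP2 (AOL_s00193g19, -0.889) and polyadenylate-binding protein 2 (AOL_s00188g59, -0.866), each highest in WT at 48 h. The kinases themselves had r = 0.591 with each other.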

How the data were processed

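RNA of 12 libraries was measured by RNA-seq. The authors deposited TPM per gene, FPKM with annotation, read counts and percent of bases per library (clean reads, Q30 94.3% to 94.7%, GC 47.9% to 48.4%), and calls without p-values; a file named for raw counts holds correlation scores between libraries (deposited values within 5e-05 of Pearson's r of TPM), so no counts per gene were used. Which aligner, quantifier and genome build were used is not given in the sources used here. Group means (8 columns) were not used.

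The 9355 genes that reached 1 TPM in 3 or more libraries were fitted on log2(TPM + 1) over the 12 libraries, with 1 mean for each group and without a block, in limma 3.58.1 (R 4.3.3, moderated with a trend of variance on level). Fold changes on this scale understate those of low genes. P-values are two-sided, adjusted by Benjamini-Hochberg across every gene fitted, and a gene was called below 0.05. The fit was tested on simulated data. Within-library differences used exact permutation tests (Python 3.11.15, scipy 1.17.1). Assigned fragments were estimated from steps of low FPKM values in genes of 500 to 1000 bases, with 210 to 235 bases taken off the length; all 248 to 295 values per library lay within 0.15 of a whole number. All 11479 loci matched the RefSeq gene table, used for neighbours only, and no protein or promoter sequence was used. Lengths were multiples of 3 for 99.98% of genes.

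The kinases and the 9 gene lists (93 genes, by annotation, after dropping 26 keyword matches) were chosen with earlier results of these data known. Named genes were both kinases, all genes of the complex, regulator and carbon regulator lists, from each other list the called gene with the lowest adjusted p in each direction and comparison, and the 5 most and 3 least similar patterns. The kinase-domain set, the complex ratios and the neighbouring genes were added after values were seen. Alternatives were pseudocount 0.1, no filter, median-of-ratios scaling, quantile normalization, FPKM, only the groups compared, a replicate block, each library left out, and the first libraries labelled ΔAorlmA left out.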

Additional observations from a re-analysis of the deposited data

Results flagged for a closer look

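The change over 48 h differed between the strains, by the interaction term of the limma fit, for 8 genes named here. Of all genes tested 4.43% were called in the interaction. Some of the 8 were named because they were called, so their number is not a share of the lists. The SNRK-type kinase (AOL_s00054g163) had 3.63 on the log2 scale, the labelled mutant minus WT, and was called in all 19 alternatives. An alpha-glucosidase (AOL_s00169g233) had 2.68 and was also called in all 19, although its levels were below 8 TPM in every library. Its mean was 6.96 TPM in WT at 0 h. The other means were near the floor, at 0.343 TPM in the labelled mutant at 0 h, 0.79 TPM in the labelled mutant at 48 h and 0.64 TPM in WT at 48 h. The labelled mutant thus had little room to fall. The NAD malic enzyme (AOL_s00080g133) had 2.61 and was called in 17, and it fell in both strains (log2 fold change -1.09 in the labelled mutant and -3.70 in WT).

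The other calls were less stable when 1 of the 12 libraries was left out. The upstream kinase ssp1 (AOL_s00110g86) had 2.07 and was called in 6 of the 12 such fits (limma adjusted p 0.0204 to 0.082 over all alternatives). The repressor creA (AOL_s00054g35) had 2.04 and was called in 5 of 12 (limma adjusted p 0.0163 to 0.0907). The autophagy kinase ATG1 (AOL_s00076g234) had 1.99 and was called in 4 of 12 (limma adjusted p 0.00929 to 0.0827). SNF4 (AOL_s00004g493) had 1.76 and was called in 3 of 12 (limma adjusted p 0.0154 to 0.108). AOL_s00054g162, the neighbour of the SNRK-type kinase, had 2.9 and was called in 5 of 12 (limma adjusted p 0.016 to 0.0875). Median-of-ratios scaling also ended the calls of ssp1, creA, SNF4 and AOL_s00054g162, and pseudocount 0.1 that of SNF4.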

How the results depend on the processing

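SNF1 and the SNRK-type kinase kept direction and call over time in WT and in the labelled mutant in all 20 alternatives, as did the SNRK-type kinase at 48 h. At 0 h median-of-ratios scaling ended both calls (SNF1 -0.76, SNRK-type kinase -0.75) and quantile normalization that of the SNRK-type kinase (-0.80); the cause was not tested. Without both first libraries labelled ΔAorlmA, SNF1 had 0.11 between the strains at 48 h and an interaction of 1.34 that passed (limma adjusted p = 0.0463). Each of these libraries had the lowest mean correlation in its group, at 48 h only slightly (0.932 against 0.943 and 0.956). With single libraries left out, SNF1 ranged from -1.48 to -1.21 at 0 h, from -0.37 to 0.11 at 48 h (0.09 without the first WT library) and from 0.94 to 1.41 in the interaction, and the SNRK-type kinase from -1.61 to -0.95 at 0 h. The SNF1 minus SNRK-type difference at 0 h was near 0 and took either sign: 0.046 without a pseudocount and -0.29 to 0.13 with single libraries left out (0.01 without WT library 2, 0.06 without library 3 and 0.13 without library 2 of those labelled ΔAorlmA).

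Counts of called genes moved more. At 0 h 3990 genes were called, 2374 after median-of-ratios scaling and 2096 to 4428 with single libraries left out. At 48 h 2234 were called, 4001 without both first libraries labelled ΔAorlmA and 491 to 3093 with single libraries left out. Over time in the labelled mutant 2009 were called, 438 from those groups alone, 3420 without both first libraries and 720 to 3442 with single libraries left out. In the interaction 414 were called, 260 with pseudocount 0.1, 1349 without both first libraries and 17 to 876 with single libraries left out. Of 56 calls on other named genes, 31 were kept with every single library left out, and 5 ended in more than 6 of the 12 such fits. Of 1782 counts over the gene lists, 1467 stayed within 1.5 times. A count of no called genes that stayed so was scored as kept, so this overstates how stable the lists were.

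Libraries with the same number did not deviate together (correlations of deviations -0.316 to 0.188), so the numbers were not read as pairs. With the replicate block the fold changes of both kinases stayed as they were and no call on them changed: SNF1 at 0 h had limma adjusted p = 0.012 and the SNRK-type interaction 0.0222, and 3789 genes were called at 0 h.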

Other observations

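AOL_s00054g162, a gene without annotation next to the SNRK-type kinase in the RefSeq table and not overlapping it, was looked at after the values were seen. It had 309.81, 504.33 and 427.29 TPM in libraries labelled ΔAorlmA at 0 h, against 414.01, 281.95 and 166.55 TPM in WT. At 48 h it had 267.71, 302.42 and 910.07 TPM in libraries labelled ΔAorlmA, against 35.06, 26.18 and 51.97 TPM in WT. The strains overlapped at 0 h (0.59, limma adjusted p = 0.311) and not at 48 h (3.49, limma adjusted p = 0.00197), and the gene fell over 48 h in WT (-2.86, limma adjusted p = 0.000431), as the SNRK-type kinase did. The gene on the other side, AOL_s00054g164, annotated as the mannosyltransferase ALG1, was called only at 0 h (-0.94, limma adjusted p = 0.0424). Beside SNF1, the amidase AOL_s00173g193 had 151.7 TPM in the labelled mutant and 345.3 TPM in WT at 0 h (-1.45, limma adjusted p = 0.0338), and 25.5 TPM in the labelled mutant and 13.9 TPM in WT at 48 h (0.76, limma adjusted p = 0.277). It fell over 48 h in WT (-4.55, limma adjusted p = 4.28e-05) and in the labelled mutant (-2.34, limma adjusted p = 0.00922).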
